A study of Mus musculus with 4 samples.

Results

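The 33 genes described here encode the signals and receptors of axon guidance: 16 ephrins and Eph receptors, 8 semaphorins, neuropilins and plexins, 5 Slit and Robo genes, and netrin 1 with 3 of its receptors. They were chosen by name, from a list of gene symbols, out of 52636 gene identifiers in the count tables. Earlier results of these data were known at that choice, so their shares beside all genes are descriptive. All 33 were found, and all 33 were among the 16557 genes with enough reads to be tested. RNA-seq libraries were made from mouse otic cells, purified by fluorescence-activated sorting from otocysts, the vesicles that give rise to the inner ear. There were 2 libraries with the genotype Control and 2 labelled Brg1cKO, a conditional knockout of the chromatin remodeler Brg1, each from 3000 cells. The sources used here do not give the age of the embryos, the Cre line, the allele or any genotype shared by both groups. They also do not say whether replicates are separate litters or sorts, so p-values cover only the spread among these 4 libraries, and that spread may be technical.

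Guidance molecules steer growing axons and migrating cells by attraction or repulsion. Ephrins are held on the cell surface and bind Eph receptor tyrosine kinases on neighbouring cells, with signals running into both. Secreted class 3 semaphorins act through neuropilins, which bind them, and plexins, which carry the signal. Slits repel through Robo receptors, and netrin 1 attracts through Dcc and repels through Unc5 receptors. In the inner ear these families are known for guiding the neurites and migrating cells of the cochleovestibular ganglion, and several of them also pattern blood vessels.

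Depth differed by group. Brg1cKO-labelled samples were the deeper, at 29361382 and 25875555 gene reads, while the controls had 15357265 and 19132360. Fewer genes were detected in control (17266 and 17086) than in Brg1cKO-labelled samples (20859 and 20902). The part of depth in control values of 0 and in the control spread given below was not tested. Smarca4, which encodes Brg1, measured 816 and 815 CPM in control and 891 and 848 CPM in Brg1cKO-labelled libraries, a log2 fold change of 0.09 ± 0.0995 (SE; adjusted p = 0.817, edgeR), so it checks the labels little. All levels are TMM-scaled CPM, a gene's share of the library's reads after scaling. Both groups held RNA of several cell types, and the mix differed between them. The 12 markers of otic epithelium summed to 1890 and 1947 CPM in control and 354 and 375 CPM in Brg1cKO-labelled libraries, with all 12 at negative log2 fold changes. The 12 neuroblast and neuron markers summed to 1604 and 1641 against 561 and 510 CPM, again with all 12 negative. The 12 endothelial markers summed to 3058 and 2990 against 3365 and 3315 CPM, with 8 positive and 4 negative log2 fold changes (median 0.065). The 12 white blood cell markers summed to 347 and 368 against 1572 and 1469 CPM, with all 12 positive. Head mesenchyme markers summed to 2880 and 3117 against 2464 and 2491 CPM, although 8 of 12 had positive log2 fold changes (median 0.36); Col1a1 alone stood at 1107 and 1207 against 568 and 580.4 CPM. Striated muscle markers summed to 72.6 and 106 against 579 and 592 CPM, with 10 positive and 1 negative log2 fold change among 11 tested. None of the markers of these 6 lists was at 0 in every library, and Myog was at 0 in both Brg1cKO-labelled libraries. Among hindbrain and neural tube markers, which summed to 72.3 and 170 against 73.2 and 106 CPM, Sox1, Pax3, Hoxb1 and Dbx1 were at 0 in both controls. Glia and neural crest markers summed to 605 and 682 against 501 and 510 CPM, with 5 of 9 tested at positive log2 fold changes (median 0.21). The lower sum lay in Erbb3, with group means of 177 ± 83.2 and 61.1 ± 15.7 CPM (SD, n = 2 each), and Sox10, with 141 ± 35.1 and 58.0 ± 1.47 CPM, a gene that the otic epithelium list also holds. Red blood cell markers summed to 624 and 669 against 227 and 214 CPM, with 8 negative and 2 positive log2 fold changes among 10 tested. The part of this mix in the values that follow was not tested, and in bulk RNA fewer cells of a type and less RNA per cell cannot be told apart.

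In the Brg1cKO-labelled libraries the guidance genes lay more often below the controls than above them, and the lowest relative to control were the receptors Ephb1, Epha7 and Unc5c and the ligands Sema3d and Efna1. None of the 33 passed a Benjamini-Hochberg adjusted p under 0.05 in edgeR's quasi-likelihood test, where 0.0302% of all genes tested passed. The lowest adjusted p was 0.250, for Epha7. At an unadjusted p under 0.05, 10 members differed. Of these 9 were lower (27.3% of the members), against 4.80% of all genes tested, and 1 was higher (3.03%), against 7.66%. Both Brg1cKO-labelled libraries lay below both controls for 16 members (48.5%, against 17.8% of all genes tested). They lay above both for 4 members (12.1%, against 26.3%), and the groups overlapped for 13. Among the 8528 genes with a mean of at least 20 CPM, 7.22% were lower and 5.76% higher at an unadjusted p under 0.05, while 22.6% lay wholly below and 23.0% wholly above the controls. Of the members, 30 reached that mean, all except Efna3, Dcc and Ephb1.

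**Figure D1:**
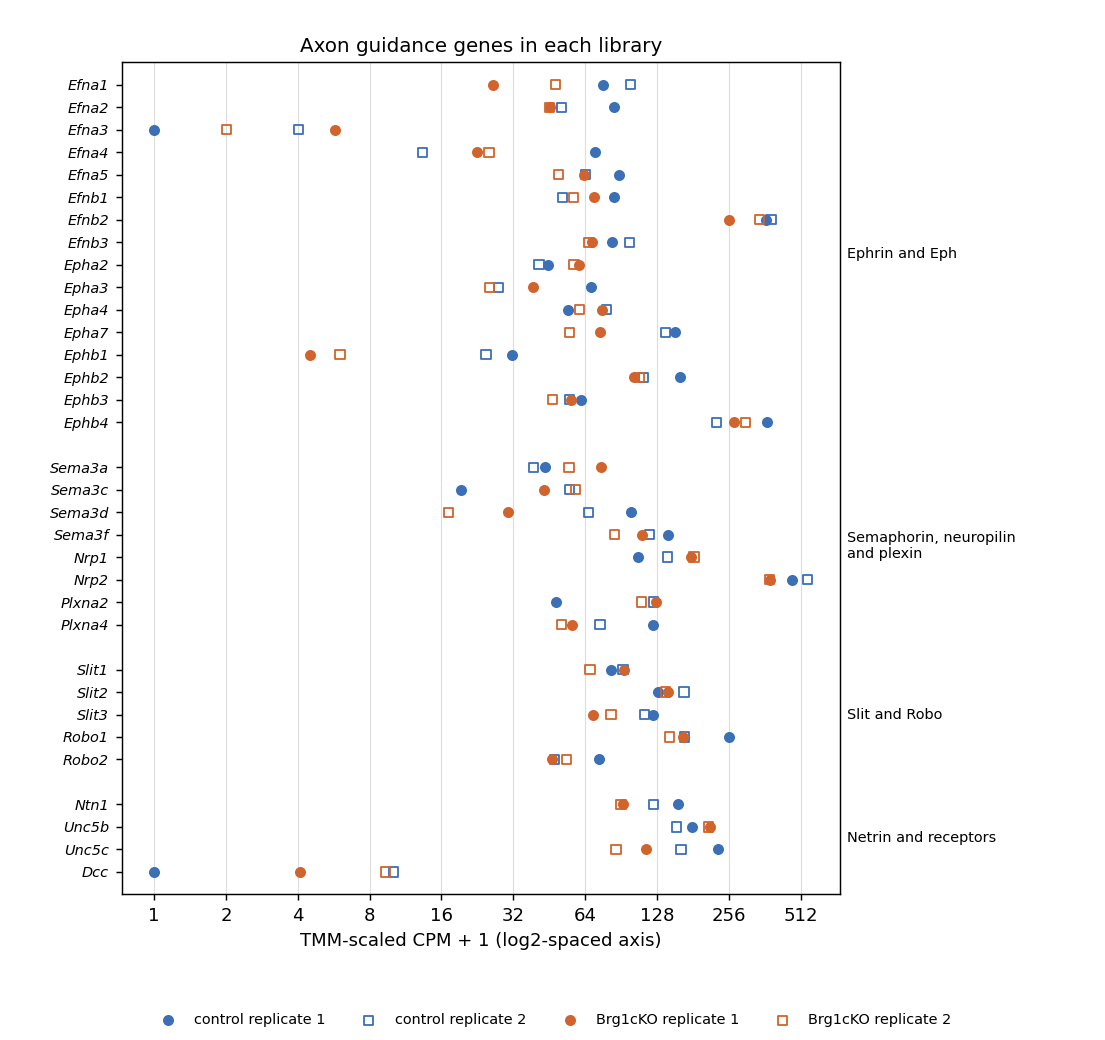
Scaled CPM plus 1 of each of the 33 members (horizontal axis, log2-spaced) in the 2 control libraries (blue) and the 2 Brg1cKO-labelled libraries (orange), grouped by family. Ephb1 and Sema3d show a clear gap between the groups, and Efna3 and Dcc have 0 reads in control replicate 1.

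The median log2 fold change was -0.37 over the members and 0.03 over all genes tested. It was negative for 24 of 33 members (72.7%). The share was 48.5% of all genes tested and 51.2% of those with a mean of at least 20 CPM. Among ligands 13 of 16 were negative (median -0.43), and among receptors 11 of 17 (median -0.27). By family the median was -0.40 for ephrins and Eph receptors (13 of 16 negative) and -0.27 for Slit and Robo genes (5 of 5 negative). It was -0.15 for netrin 1 and its receptors (2 of 4 negative) and 0.02 for semaphorins, neuropilins and plexins (4 of 8 negative), the last turning to -0.02 with RLE scaling.

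How many members passed depended on the tool and on the control libraries. DESeq2 called 9 members, all lower (6.30% of all genes were called lower and 8.33% higher), namely Efna1, Epha7, Ephb1, Sema3d, Nrp2, Plxna4, Slit3, Ntn1 and Unc5c, while limma voom called 0 (0.326% of all genes). With every gene of at least 1 count kept, edgeR called Epha7, Sema3d and Unc5c, all lower (1.01% of all genes were called lower). Without control replicate 1, edgeR called 6 lower and 1 higher (8.82% of all genes each way), and without control replicate 2 it called 15 lower and 4 higher (8.39% and 8.46%), among the 4 Dcc, which is then compared with a lone control library at 0 reads. Without Brg1cKO replicate 1, and likewise without Brg1cKO replicate 2, it called 0 (0.237% and 0.173% of all genes). A library left alone in its group is assumed to vary like those of the other group.

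**Figure D2:**
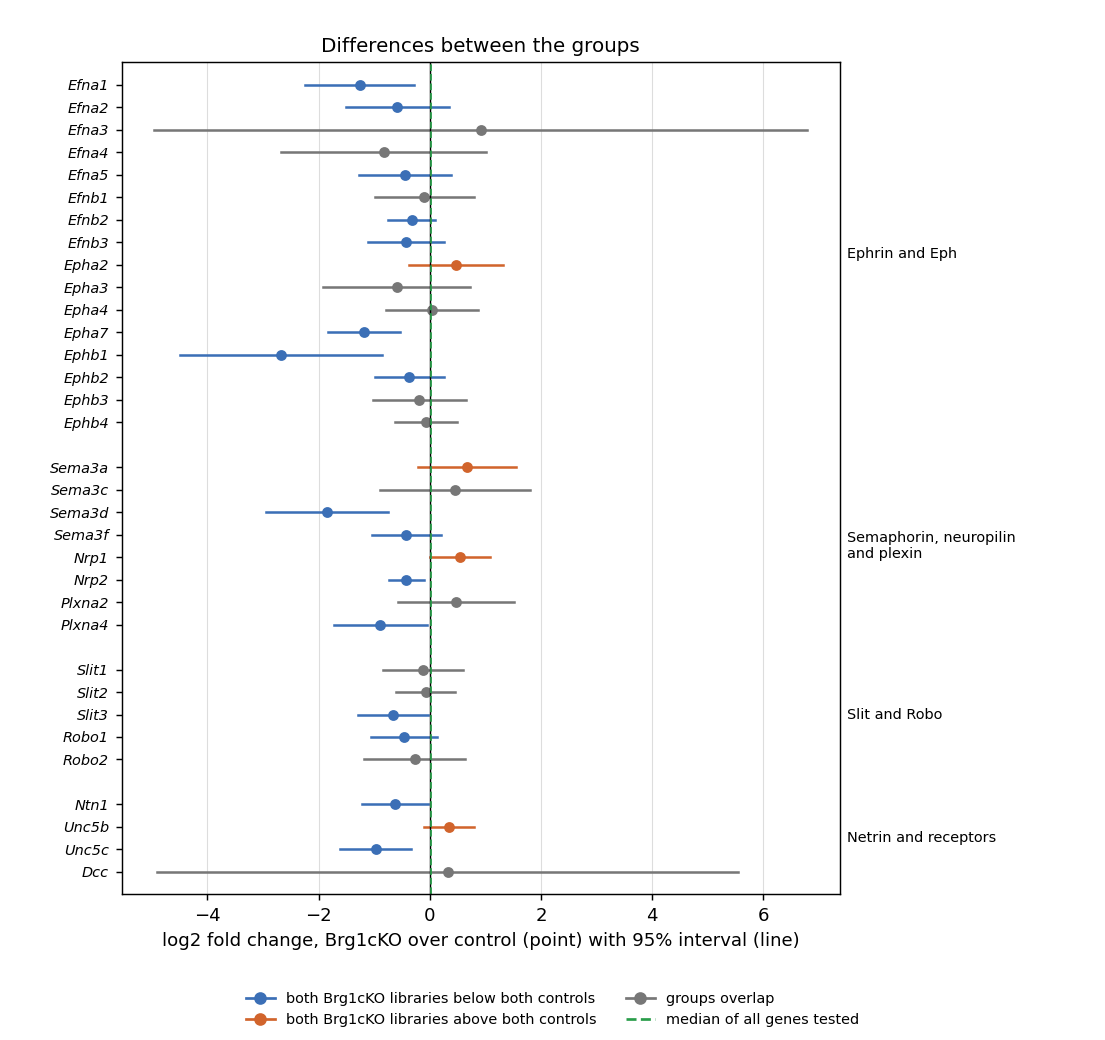
Log2 fold change of Brg1cKO over control for each member (point, horizontal axis) with its 95% interval from edgeR (line). Colours mark the 16 members with both Brg1cKO-labelled libraries below both controls, the 4 above them and the 13 that overlap; the dashed line is the median of all genes tested.

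Among Eph receptors, Ephb1, a receptor of B-class ephrins on growing axons, showed the largest difference of all 33. It measured 30.7 and 23.6 CPM in control and 3.48 and 5.01 CPM in Brg1cKO-labelled libraries, means of 27.1 ± 4.99 and 4.25 ± 1.08 CPM (SD, n = 2 each). Both Brg1cKO-labelled libraries were low and the groups were far apart. This gave a log2 fold change of -2.67 ± 0.773 (SE; 95% interval -4.49 to -0.86; adjusted p = 0.353, edgeR). Epha7, a receptor of A-class ephrins with roles in neural patterning, measured 151 and 138 CPM in control and 73.0 and 54.2 CPM in Brg1cKO-labelled libraries, a log2 fold change of -1.18 ± 0.276 (SE; 95% interval -1.83 to -0.54; adjusted p = 0.250, edgeR). The replicates of each group lay close together beside the gap between groups. In the same libraries the neuroblast and neuron markers summed to 1604 and 1641 against 561 and 510 CPM, and their part in these differences was not tested. In mm10 Ephb1 (ENSMUSG00000032537) lies on the minus strand of chromosome 9 from 101922128 to 102354693, and Epha7 (ENSMUSG00000028289) on the plus strand of chromosome 4 from 28813131 to 28967499.

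The other 6 Eph receptors lay closer to the controls. Epha2, a receptor of epithelial cells, was the only one of these 8 Eph receptors with both Brg1cKO-labelled libraries above both controls, at 59.5 and 56.5 against 43.7 and 40.0 CPM, and its log2 fold change of 0.47 had a 95% interval from -0.38 to 1.32. Epha4, a receptor that binds ephrins of both classes, measured 53.1 and 77.7 CPM in control and 74.7 and 59.5 CPM in Brg1cKO-labelled libraries, with overlapping groups and a log2 fold change of 0.04 that turned to -0.00012 with RLE scaling. Epha3 stood at 67.0 and 26.8 against 37.7 and 24.4 CPM, so its controls differed more than the groups did. Within the B class, Ephb2 stood at 158 and 111 against 102 and 107 CPM and Ephb3 at 60.6 and 54.1 against 54.6 and 45.8 CPM. Ephb2 was just below the controls in both libraries and Ephb3 overlapped. The log2 fold change of Ephb2 went from -0.37 to -0.087 without control replicate 1 and to -0.62 without control replicate 2, and that of Ephb3 from -0.19 to -0.063 without Brg1cKO replicate 2 and to -0.31 without Brg1cKO replicate 1. Ephb4, the receptor known for marking veins, stood at 369 and 227 against 268 and 300.4 CPM with the Brg1cKO-labelled libraries between the controls; its 95% interval ran from -0.63 to 0.50 on the log2 scale. Ephb4 shares 33 of its 4640 exonic bases with Zan on the opposite strand, and the strand setting of the counting is not given.

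Of the A-class ephrins 4 of 5 had negative log2 fold changes, where 48.5% of all genes tested had, and 3 of 5 lay wholly below the controls, where 17.8% did. Efna1 was the only ephrin of either class with an unadjusted p under 0.05. Efna1, an A-class ligand of epithelium and endothelium, measured 75.3 and 97.9 CPM in control and 25.3 and 46.9 CPM in Brg1cKO-labelled libraries, a log2 fold change of -1.26 ± 0.418 (SE; 95% interval -2.25 to -0.28; adjusted p = 0.368, edgeR). The groups did not overlap, although on the log2 scale the Brg1cKO-labelled replicates were further apart than the controls. Efna2 stood at 83.6 and 49.8 against 44.7 and 44.2 CPM, and Efna5, a repellent of retinal and other sensory axons, at 87.8 and 63.5 against 62.3 and 48.7 CPM. In both genes control replicate 1 was the high library, and the second control lay next to the others. Without control replicate 1 the log2 fold change of Efna2 went from -0.58 to -0.16 and that of Efna5 from -0.45 to -0.19, and without control replicate 2 they were -0.93 and -0.68. Efna4 measured 69.3 and 12.3 CPM in control and 21.4 and 24.3 CPM in Brg1cKO-labelled libraries, so the controls enclosed the other group. Its log2 fold change of -0.83 became 0.90 without control replicate 1. Efna3 had 0 and 57 reads in control and 138 and 26 reads in Brg1cKO-labelled libraries, at most 4.71 CPM; 0 reads in control replicate 1 allow up to 0.195 CPM, counting error only. Efna1, Efna3 and Efna4 are neighbours on chromosome 3 (Efna1 from 89271733 to 89281142, Efna3 from 89313899 to 89322965, Efna4 from 89333390 to 89338028 in mm10), with no other protein-coding gene between them. Efna4 shares 168 of its 1599 exonic bases, and Efna3 344 of 2434, with antisense genes, so both counts are uncertain if strand was ignored.

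The B-class ephrins had smaller differences than Efna1. Efnb2, the ligand of Ephb4 that is known for marking arteries, measured 366 and 384 CPM in control and 255 and 344 CPM in Brg1cKO-labelled libraries. Efnb3, a neural ligand, stood at 82.2 and 97.0 against 67.6 and 65.5 CPM, and Efnb1, an X-linked ligand that keeps cell groups apart, at 83.7 and 50.4 against 69.1 and 56.2 CPM. The groups were apart for Efnb2 and Efnb3 and overlapped for Efnb1. Log2 fold changes were -0.33 (95% interval -0.75 to 0.10), -0.43 (-1.12 to 0.26) and -0.10 (-0.98 to 0.79). Leaving out Brg1cKO replicate 1 moved Efnb2 to -0.12, and leaving out Brg1cKO replicate 2 moved it to -0.55. Efnb1 was at 0.32 when control replicate 1 was left out and at -0.44 when control replicate 2 was.

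Semaphorins lay on both sides of the controls, and Sema3d was the furthest from them. Sema3d, a secreted guidance cue that also acts on neural crest and heart cells, measured 99.1 and 65.1 CPM in control and 29.5 and 16.1 CPM in Brg1cKO-labelled libraries. This gave a log2 fold change of -1.85 ± 0.464 (SE; 95% interval -2.94 to -0.75; adjusted p = 0.289, edgeR). Sema3a, the classic growth cone repellent, lay on the other side, at 42.6 and 37.8 CPM in control and 73.7 and 53.8 CPM in Brg1cKO-labelled libraries, without overlap (log2 fold change 0.67, 95% interval -0.22 to 1.55; adjusted p = 0.579, edgeR). These paralogs are close on chromosome 5 of mm10, Sema3d from 12383385 to 12588948 and Sema3a from 13125414 to 13602565, 536 kb apart with no protein-coding gene between them. Without Brg1cKO replicate 1 the log2 fold change of Sema3a was 0.43. Sema3f, a ligand of Nrp2, stood at 141 and 118 against 109 and 83.8 CPM, and its log2 fold change went from -0.42 to -0.23 without Brg1cKO replicate 2. Sema3c, a cue of heart outflow and neural crest, stood at 18.3 and 54.1 against 42.2 and 57.5 CPM and overlapped, with a log2 fold change of 0.46 that became -0.11 without control replicate 1.

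The neuropilins differed in sign. Nrp1, the receptor subunit for Sema3a and a co-receptor for VEGF in endothelium, measured 105 and 141 CPM in control and 177 and 182 CPM in Brg1cKO-labelled libraries, a log2 fold change of 0.54 ± 0.229 (SE; 95% interval 0.01 to 1.08; adjusted p = 0.391, edgeR). It was the only member higher at an unadjusted p under 0.05 (0.0478, edgeR), and with RLE scaling that p was 0.0591. Without control replicate 1 its log2 fold change was 0.36. Nrp2, the subunit for Sema3f, measured 470.0 and 545 CPM in control and 379 and 378 CPM in Brg1cKO-labelled libraries, a log2 fold change of -0.42 ± 0.137 (SE; 95% interval -0.74 to -0.10; adjusted p = 0.368, edgeR). The groups were apart for both subunits, in opposite directions. The difference between these 2 genes was not tested. In the same libraries the endothelial markers summed to 3058 and 2990 against 3365 and 3315 CPM, with 8 positive and 4 negative. Plexins differed too: Plxna4, a signalling partner of Sema3a in sensory neurons, stood at 123 and 72.8 against 55.7 and 49.8 CPM (log2 fold change -0.89, 95% interval -1.73 to -0.05; adjusted p = 0.373, edgeR). Without control replicate 1, its high library, this was -0.46, and without control replicate 2 it was -1.23. Plxna2 stood at 47.2 and 123 against 126 and 109 CPM, with only control replicate 1 low, and its log2 fold change of 0.47 became -0.06 without that library.

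Promoter sequences are shown for 3 members with large differences, because they differ in base composition. RefSeq windows of 250 bases before the start (GRCm38.p6) were found for 27 of the 33 members, 32 windows in all, and none for Efnb3, Sema3f, Plxna4, Slit1, Ntn1 and Dcc. Written 5′ to 3′ on the strand of the gene, the windows are chr9:102354694-102354943 (minus) for Ephb1, chr5:12382916-12383165 (plus) for Sema3d and chr4:28812881-28813130 (plus) for Epha7, and capitals mark the E-box CANNTG and the SOX core ACAANG or its reverse complement CNTTGT.
Ephb1: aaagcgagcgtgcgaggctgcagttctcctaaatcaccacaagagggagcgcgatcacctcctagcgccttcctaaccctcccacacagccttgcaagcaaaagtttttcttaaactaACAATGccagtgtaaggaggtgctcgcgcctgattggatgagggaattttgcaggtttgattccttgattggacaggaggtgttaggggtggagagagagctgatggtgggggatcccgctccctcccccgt
Sema3d: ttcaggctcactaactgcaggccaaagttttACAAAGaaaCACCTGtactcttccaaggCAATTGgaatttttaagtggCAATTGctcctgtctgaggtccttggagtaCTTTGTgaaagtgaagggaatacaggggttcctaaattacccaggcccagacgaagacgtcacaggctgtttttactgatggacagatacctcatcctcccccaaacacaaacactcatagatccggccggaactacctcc
Epha7: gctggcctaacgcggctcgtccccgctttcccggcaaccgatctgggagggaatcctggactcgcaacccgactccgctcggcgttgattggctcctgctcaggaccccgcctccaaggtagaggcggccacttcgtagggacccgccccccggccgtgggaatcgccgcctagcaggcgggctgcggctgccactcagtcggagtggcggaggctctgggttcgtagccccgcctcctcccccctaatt
Sema3d had 3 E-boxes and 2 SOX cores, Ephb1 had 1 SOX core, and Epha7 had neither. An E-box was in 37.5% of the members' windows and in 66.2% of all 32851 windows, and a SOX core in 21.9% and 36.3%. The GC box GGGCGG (either strand) was in 62.5% of the members' windows and 32.7% of all, and the TATA box TATAAA (either strand) in 6.25% and 12.4%. The members' windows had a median of 17 CpG dinucleotides and 65.2% GC, against 6 and 52.4% over all. Sema3d with 4 CpG and 46.8% GC and Ephb1 with 10 and 54.0% lay below that median of the members, and Epha7 with 25 and 69.2% above it. Sema3a, which lay above the controls, had 2 CpG and 40.8% GC, the lowest of the 32 windows on both counts. Its window, chr5:13396534-13396783, lies within the span given above for the gene, not before the first base of that span.

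Among Slit ligands only Slit3 was apart from the controls. It measured 123 and 113 CPM in control and 67.9 and 81.2 CPM in Brg1cKO-labelled libraries, without overlap (log2 fold change -0.66 ± 0.268 SE, 95% interval -1.29 to -0.03; adjusted p = 0.375, edgeR). Slit1 stood at 81.1 and 91.4 against 91.9 and 66.1 CPM, and Slit2, a midline repellent, at 128 and 165 against 141 and 138 CPM. Both overlapped, with 95% intervals from -0.85 to 0.60 and from -0.61 to 0.46 on the log2 scale. Among the receptors, Robo1 stood at 257 and 166 against 163 and 144 CPM and Robo2 at 72.0 and 46.7 against 45.6 and 52.6 CPM. In both receptors control replicate 1 was the high library, and Robo2 overlapped. Without control replicate 1 the log2 fold change of Robo1 went from -0.46 to -0.11 and that of Robo2 from -0.27 to 0.08. Without control replicate 2 that of Robo1 was -0.76, and the median of the 5 Slit and Robo genes went from -0.27 to -0.57. Robo1 and Robo2 are neighbours on chromosome 16 with no protein-coding gene between them.

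Netrin 1 and Unc5c lay below the controls and Unc5b above. Ntn1, a secreted cue that is also needed for the fusion of the semicircular canals, measured 156 and 123 CPM in control and 91.1 and 89.5 CPM in Brg1cKO-labelled libraries, a log2 fold change of -0.63 ± 0.250 (SE; 95% interval -1.21 to -0.04; adjusted p = 0.368, edgeR). Unc5c, a receptor for repulsion by netrin, stood at 230.1 and 161 against 114 and 85.2 CPM, a log2 fold change of -0.97 ± 0.271 (SE; 95% interval -1.61 to -0.33; adjusted p = 0.334, edgeR). Every Brg1cKO-labelled library was under both controls in these 2 genes, in libraries where the otic epithelium markers summed to 1890 and 1947 against 354 and 375 CPM. Unc5b, the family member known from endothelium, measured 179 and 154 CPM in control and 213 and 209 CPM in Brg1cKO-labelled libraries (log2 fold change 0.35, 95% interval -0.10 to 0.79; adjusted p = 0.560, edgeR), and 0.22 on that scale without control replicate 2. Dcc, the receptor for attraction, had 0 and 171 reads in control and 90 and 215 reads in Brg1cKO-labelled libraries, 9.07 CPM at most, and its 95% interval ran from -4.90 to 5.55 on the log2 scale. Unc5c (ENSMUSG00000059921) lies on chromosome 3 from 141465216 to 141834924 in mm10 and shares 118 of its 19135 exonic bases with an antisense gene. Without control replicate 1 the median of the 4 genes went from -0.15 to -0.56, and without Brg1cKO replicate 2 to -0.58. In these fits the log2 fold change of Dcc turned from 0.32 to -0.67 and -0.55, while Ntn1, Unc5b and Unc5c kept their signs.

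**Figure D3:**
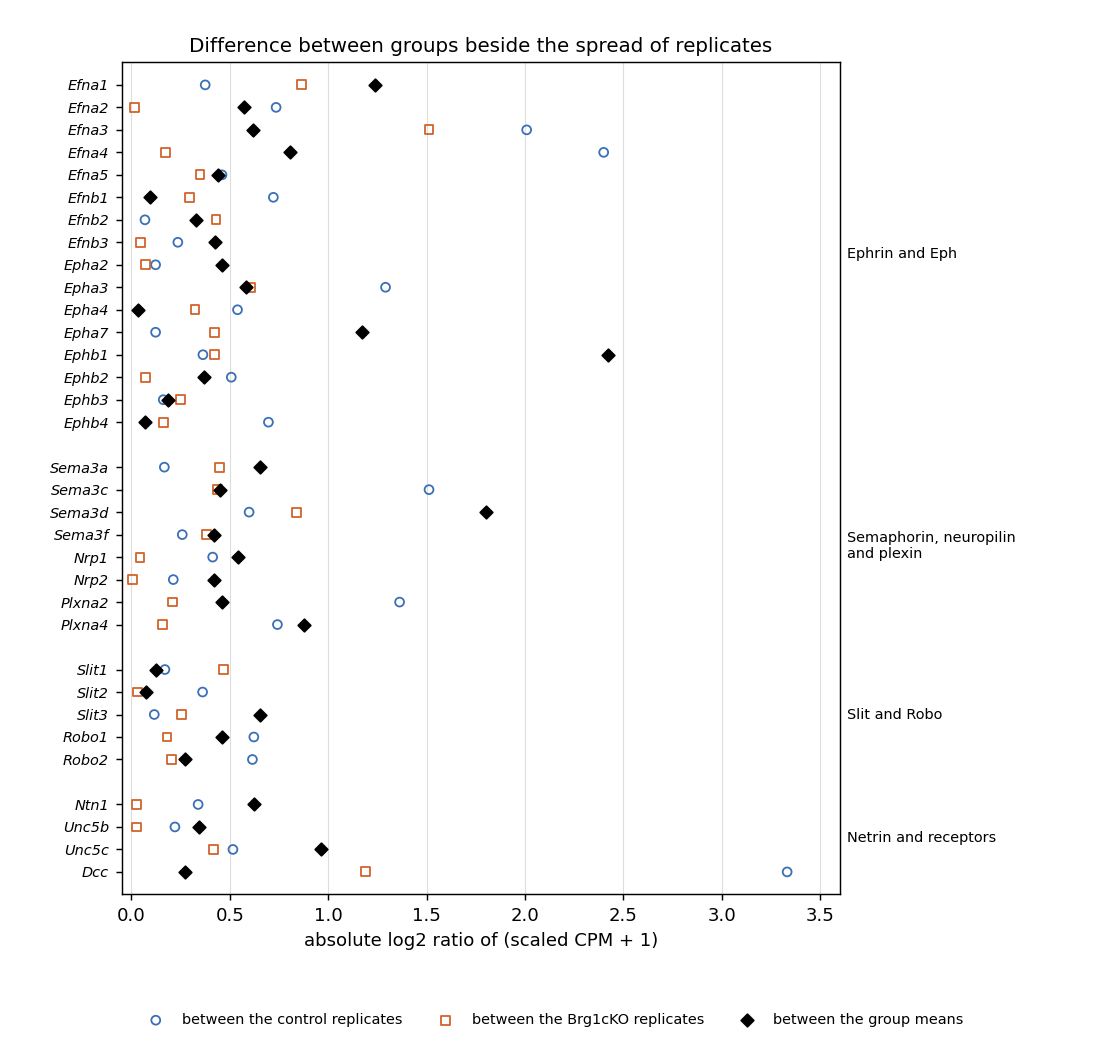
Absolute log2 ratio of scaled CPM plus 1 (horizontal axis) between the control replicates (circles), between the Brg1cKO-labelled replicates (squares) and between the group means (diamonds) for each member. The group ratio exceeds both replicate ratios in 15 of 33 members; the widest control ratios are those of Dcc, Efna4 and Efna3.

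The spread between replicates was wider in the controls. For 23 of 33 members the control replicates differed by more than the Brg1cKO-labelled replicates did, with medians of 0.46 and 0.26 for the absolute log2 ratio (1 CPM added to each value). Over all genes tested these medians were 0.69 and 0.35, and over those with a mean of at least 20 CPM they were 0.49 and 0.22. Control replicates differed by over 2-fold for 6 members (Efna3, Efna4, Epha3, Sema3c, Plxna2 and Dcc) and the others for 2 (Efna3 and Dcc). The group means differed by more than either pair of replicates for 15 members (45.5%), against 32.2% of all genes tested. These 15 were Efna1, Efnb3, Epha2, Epha7, Ephb1, Sema3a, Sema3d, Sema3f, Nrp1, Nrp2, Plxna4, Slit3, Ntn1, Unc5b and Unc5c.

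Levels of different genes were compared per length, as scaled CPM per kb of annotated exon. The most abundant pair was the vascular receptor and ligand, Ephb4 at 64.3 and Efnb2 at 54.8 CPM per kb in the controls (means of 2 libraries), and they were also first and second in the Brg1cKO-labelled libraries, at 61.3 and 43.7. Ephb4 ran from 49.0 to 79.6 between the control libraries, a range that enclosed Efnb2 at 53.5 and 56.1. In the Brg1cKO-labelled libraries Ephb4, at 57.9 and 64.7, lay above Efnb2, at 37.2 and 50.1. Efna1 was next at 47.3 and Nrp2 at 42.9 in the controls. In the Brg1cKO-labelled libraries, Unc5b was next at 33.8 and Nrp2 at 32.0, and Efna1 stood at 19.7. Epha7 went from rank 14 of 33 to rank 23 (14.6 and 6.44 CPM per kb), Sema3d from 20 to 30 (9.55 and 2.65), and Nrp1 from 17 to 9 (12.6 and 18.3). Dcc and Efna3 were among the lowest in both groups, with control means of 0.344 and 0.621 and Brg1cKO means of 0.431 and 1.17. Within the Slit family, Slit3 led at 19.4 over Slit1 at 14.6 and Slit2 at 5.78 in the controls, while Slit1 at 13.3 and Slit3 at 12.3 were next to each other in the Brg1cKO-labelled libraries. Summed per length, the 5 A-class ephrins gave 145 and 102 CPM per kb in control and 65.6 and 74.1 in Brg1cKO-labelled libraries, without overlap. The 4 B-class Eph receptors stood at 106 and 69.3 against 74.7 and 80.8, and overlapped.

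**Figure D4:**
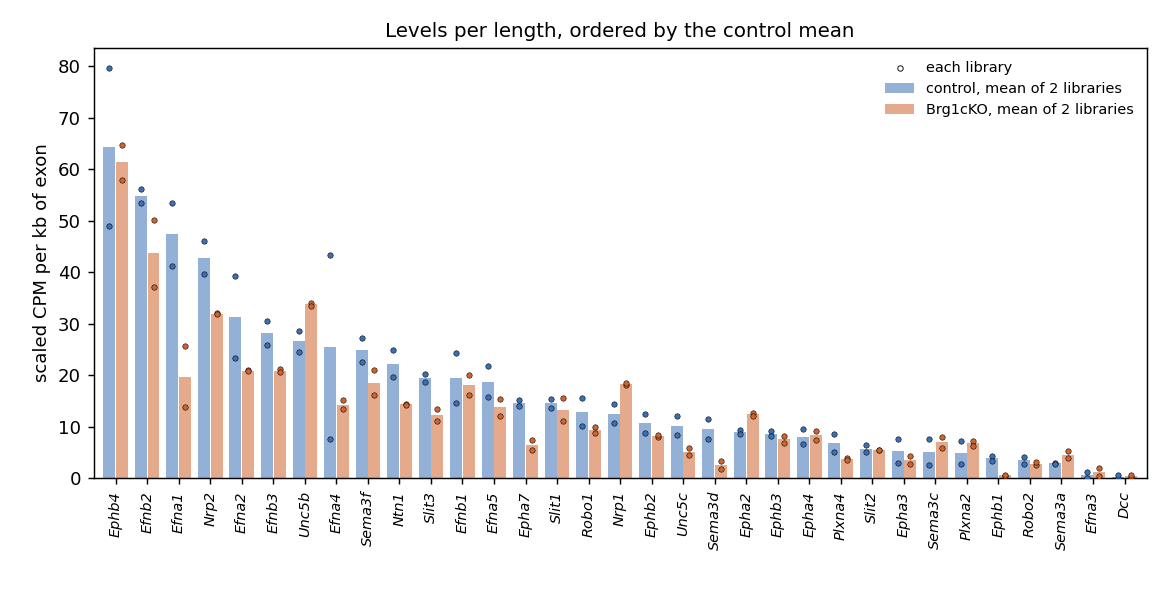
Scaled CPM per kb of exon (vertical axis) for the 33 members, ordered by the control mean. Bars are means of 2 libraries and points single libraries; Ephb4 and Efnb2 lead both groups, and the 2 control points of Efna4 are the furthest apart relative to their mean among the 8 most abundant genes.

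Other ligands and receptors of these pathways were read from a list of 46 genes that holds the remaining Eph receptors, semaphorins, plexins, Robo genes, netrins and netrin receptors with the Rgm, Draxin and Flrt genes. Ntn3 was not analysed here, and 43 were tested. By edgeR 0 passed, and at an unadjusted p under 0.05, 3 were lower (6.98%, against 4.80% of all genes tested) and 1 higher (2.33%, against 7.66%). Log2 fold changes were negative for 27 of 43 (62.8%, against 48.5%), and their median was -0.27. Sema6a, a membrane semaphorin, measured 279.8 and 329 CPM in control and 121 and 133 CPM in Brg1cKO-labelled libraries, the nearest of these genes to the threshold (log2 fold change -1.26 ± 0.187 SE; adjusted p = 0.0957, edgeR). Neo1, the neogenin receptor of netrins and Rgm proteins, stood at 329 and 289 against 186 and 181 CPM (adjusted p = 0.228, edgeR). Dscam, a further netrin receptor, stood at 12.5 and 13.1 against 0 and 0.347 CPM. Both Brg1cKO-labelled libraries were low for these 3 genes, the 3 counted as lower. Plxnc1, a plexin, was the 1 counted as higher, at 13.4 and 8.12 CPM in control and 42.3 and 25.1 CPM in Brg1cKO-labelled libraries (log2 fold change 1.64 ± 0.648 SE; adjusted p = 0.368, edgeR). Epha8, an Eph receptor outside the 33, stood at 2.47 and 0 against 15.9 and 17.0 CPM, without overlap (95% interval -0.85 to 8.33 on the log2 scale). Plxnc1 and Epha8 are named after their values were seen. The most abundant per length were Plxnd1, an endothelial plexin, at 183 and 209 CPM per kb, and Plxnb2 at 60.7 and 58.1 (control and Brg1cKO means), the first above every member and the second above all except Ephb4.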

How the data were processed

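The deposited tables of the 4 libraries hold raw counts, whole numbers of reads for each Ensembl identifier, not normalized by the authors. Libraries were strand-specific, random-primed SMART-seq read over 75 bp from a single end, per the labels' protocols. The submitters' processing notes list HISAT2, HTSeq, DESeq2 and mm10 without roles or versions. The strand setting and annotation of the counting were not given in the sources used here. Records outside named genes (5 closing lines per table) were left out; they made up 51.8% and 50.7% of records in the controls and 36.0% and 36.3% in the Brg1cKO-labelled libraries.

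GENCODE M21 (mm10) named 52489 of 52636 identifiers and gave positions and exon lengths. The test was edgeR 4.0.16 (R 4.3.3): filterByExpr (minimum count 10), TMM, robust quasi-likelihood fit in the installed default form, group as the only term, F-test, Benjamini-Hochberg adjustment over 16557 genes. DESeq2 1.42.0 and voom in limma 3.58.1 were alternatives. The fit was tested on simulated data. Intervals are at 95%, from the moderated degrees of freedom. With 2 libraries a group, precision rests on the spread between replicates more than on depth.

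The members and gene lists were chosen with earlier results of these data known. Named were all members, Smarca4, and of the other pathway genes those called, the 8 with the smallest p and the 3 highest per length; marker lists are given as sums, and the value of 1 marker gene is not reported here. The level of 20 CPM for a background of well-expressed genes and the promoter motifs were chosen after the values were seen.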

Additional observations from a re-analysis of the deposited data

How the results depend on the processing

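Of the 33 members, 21 kept the sign of their log2 fold change under all 13 other fits (17 negative, 4 positive), among them every member named at an unadjusted p under 0.05. Which members fell under that p depended on the scaling. With upper quartile scaling it was 0.0502 for Ntn1 and 0.0532 for Slit3, and with RLE scaling 0.0591 for Nrp1 (edgeR). No other scaling, stricter filter, voom, newer edgeR moderation, replicate block or adjusted p under 0.10 called a member. Members called numbered 3 with every gene of at least 1 count (Epha7, Sema3d and Unc5c, all lower; 1.01% of all genes were called lower), 9 with DESeq2, and 0 to 19 with a library left out; the cause was not tested. Changed genes among all tested, 5 in the main test, numbered 417 with every gene of at least 1 count, 10 with a minimum count of 50, 2422 with DESeq2, 54 with voom, 62 with the newer moderation, 38 at an adjusted p under 0.10, and 33 to 3519 with a library left out. With the replicate block they numbered 140, with 0 members. Deviations of same-numbered libraries correlated at -0.00528 over 16557 genes. With 2 libraries a group this is a single correlation, so it cannot show whether same-numbered libraries share a litter or sort.

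With a library left out, the median log2 fold change ranged from -0.44 to -0.19 over all members, -0.53 to -0.13 for ephrins and Eph receptors, -0.20 to 0.12 for semaphorins, neuropilins and plexins, -0.57 to -0.21 for Slit and Robo genes and -0.58 to -0.14 for netrin 1 and its receptors. The median of all genes tested was 0.29 both without control replicate 1, where that of the members was -0.19, and without control replicate 2, where it was -0.44.

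Signs turned for 12 members. With each library left out in turn, log2 fold changes ranged from -1.62 to 0.90 for Efna4, -0.44 to 0.32 for Efnb1, -1.13 to 0.22 for Epha3, -0.21 to 0.32 for Epha4, -0.39 to 0.33 for Ephb4, -0.11 to 1.42 for Sema3c, -0.061 to 1.30 for Plxna2, -0.37 to 0.099 for Slit1, -0.24 to 0.10 for Slit2 and -0.57 to 0.076 for Robo2. Leaving out a control set both ends for all of these 10 except Slit1, where leaving out a Brg1cKO-labelled library did. For Efna3 (-0.58 to 9.07) and Dcc (-0.67 to 10.1) the upper end is a fit against 0 reads in control replicate 1 and is no bound. The controls differed here, at 0 and 57 reads for Efna3 and 0 and 171 for Dcc. Epha4 became -0.00012 with RLE scaling and -0.00035 with DESeq2, and Ephb4 0.0025 with voom.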

Other observations

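Genes that act inside the cell downstream of guidance receptors were read from a list of 24, of which 23 were tested. By edgeR 0 passed; at an unadjusted p under 0.05, 5 were lower in the Brg1cKO-labelled libraries (21.7%, against 4.80% of all genes tested) and 1 was higher (4.35%, against 7.66%). Log2 fold changes were negative for 13 (56.5%, against 48.5%) and positive for 10, and the median was -0.24. Ablim1, which links guidance signals to actin, measured 123 and 136 CPM in control and 41.9 and 62.8 CPM in Brg1cKO-labelled libraries (adjusted p = 0.269, edgeR). Farp1, a guanine nucleotide exchange factor that works with plexins, stood at 413 and 388 against 286 and 256 CPM, and Enah, an actin elongation factor, at 321 and 384 against 247 and 253 CPM. Dpysl5, a collapsin response mediator of neurons, stood at 89.3 and 82.6 against 37.8 and 48.4 CPM. Mical2, an enzyme that disassembles actin and acts in muscle as well, was the one on the other side, at 7.99 and 29.7 CPM in control and 88.9 and 83.5 CPM in Brg1cKO-labelled libraries (log2 fold change 2.19 ± 0.621 SE; adjusted p = 0.345, edgeR). In the same libraries the striated muscle markers summed to 72.6 and 106 against 579 and 592 CPM (10 positive and 1 negative of 11 tested). The neuroblast and neuron markers summed to 1604 and 1641 against 561 and 510 CPM. The part of these lists in the values above was not tested.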
